A study of Mus musculus with 4 samples.

Results

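Wildtype mice were compared with knockout mice of the long noncoding RNA Malat1. The neurotrophins Bdnf and Ntf5 and the receptors Ntrk2, Ntrk3, Ngfr and Sort1 were examined in the hippocampus. These genes were taken from an exon array table. Each of its rows is a transcript cluster, the array's summary of 1 putative gene or part of a gene. A row belonged to the family when GEO's platform annotation gave it a single gene symbol and that symbol was one of 7 names. This gave 10 rows for 6 genes, out of 27090 singly named rows for 20707 genes. Ntrk3 had 4 rows, Sort1 had 2, and Bdnf, Ntf5, Ntrk2 and Ngfr had 1 each. Ntf3, the remaining neurotrophin of the 7, had no singly named row and was not analysed here. By RefSeq (GRCm38.p6), Bdnf is on chromosome 2, Sort1 on chromosome 3, Ntf5 and Ntrk3 on chromosome 7, Ngfr on chromosome 11 and Ntrk2 on chromosome 13. The files are on mm9, so no positions from that table are given.

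The series compared 2 Wildtype with 2 Malat1 Knock-out male mice of strain C57BL/6, untreated and 3 months old, with 1 array per animal. Whole hippocampi were dissected, and the animals of the 2 genotypes came as littermate pairs. The labels do not say which part of Malat1 was deleted, from which line the mutants came, or whether the replicate number marks a litter. In whole tissue, fewer cells of a type and less RNA per cell cannot be told apart.

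Neurotrophins are secreted growth factors that keep neurons alive and adjust their synapses. They are made as precursors that proteases cut. The mature forms signal through Trk receptor tyrosine kinases, BDNF and NT4 through TrkB (Ntrk2) and the Ntf3 product through TrkC (Ntrk3). The precursors bind p75 (Ngfr) together with sortilin (Sort1) and can promote cell death. In the hippocampus, BDNF is released with neuronal activity and is needed for lasting strengthening of synapses. Both TrkB and TrkC also exist as truncated forms without a kinase domain, and astrocytes carry much of the truncated TrkB.

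The targeted gene was read first. Malat1 log2 signal was 11.19 and 11.25 in wildtype mice against 8.53 and 8.70 in knockout mice. This was a 6.10-fold lower signal in the knockout, and the genotypes did not overlap. The signal left in the knockout arrays was still above 5.70, the filter level for dim rows. Malat1 was the only row of 20317 tested with an adjusted p under 0.05 (limma, adjusted p = 0.0364), or 0.00492% of the rows. Limma fits a linear model to each row and shares the estimate of the spread between rows, and its p-values were adjusted over all rows tested. That call was lost with any 1 array left out (adjusted p from 0.285 to 0.541), with the array medians centred (0.0541), without the filter on dim rows (0.0720) and over all rows of the table (0.840).

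None of the 10 neurotrophin and receptor rows passed the adjusted threshold, and each had an adjusted p of 1 by limma. Of the 10, 5 lay above 0 (47.7% of all rows did) and 5 below, with log2 fold changes (knockout minus wildtype) from -0.24 to 0.11 and a median of -0.00, the same to 2 decimals as the median of all 20317 rows. At an unadjusted limma p under 0.05 there was 1 row, an Ntrk3 row, where 4.02% of all rows tested were under that p and 2.29% were under it and lower in the knockout. The genotypes did not overlap in that same row alone, against 29.2% of all rows, 15.1% being lower in the knockout. For 10 of 10 rows the 95% interval excluded a 1.5-fold change either way, as it did for 91.9% of all rows. A 1.25-fold change was excluded for 7 of 10, against 73.7% of all rows, and the exceptions were Ntf5 and 2 Ntrk3 rows. With 2 arrays against 2, an exact two-sided permutation test of a single row cannot give a p below 0.333, which was also its value for the Ntrk3 row with the largest difference.

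**Figure D1:**
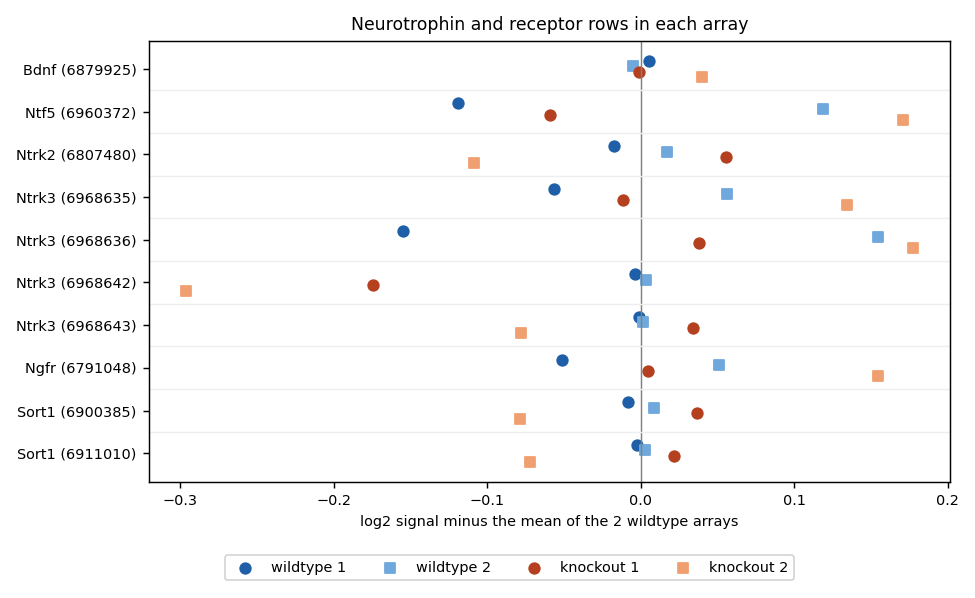
Log2 signal of each neurotrophin or receptor row in each array, minus the mean of the 2 wildtype arrays (horizontal axis), with 1 line per row and 4 points per line. Only in Ntrk3 row 6968642 do both knockout arrays lie on the same side of both wildtype arrays, and in Ntf5 the replicate 2 arrays of both genotypes lie to the right of the replicate 1 arrays.

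Of the ligands, Bdnf encodes the main neurotrophin of the hippocampus, which dentate granule cells and pyramidal neurons make. Its log2 signal was 6.12 and 6.11 in wildtype mice against 6.12 and 6.16 in knockout mice. The first knockout array lay between the wildtype values and the second above them. The log2 fold change was 0.02 ± 0.05 (SE), with a 95% interval from 0.921-fold to 1.12-fold, the narrowest of the 10 rows. This signal was dim, at the 19.9th percentile of the rows tested and 0.43 above the filter level of 5.70, and array values compress ratios near that level. A single row carries the Bdnf name, and which exons its probes read is not given in the sources used here. Bdnf transcripts start at several alternative first exons and share the coding exon, and a shift between them cannot be read from 1 row.

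Ntf5 encodes NT4, the other ligand of TrkB, which unlike BDNF is little regulated by activity. Its log2 signal was 6.06 and 6.30 in wildtype mice against 6.12 and 6.35 in knockout mice. The groups overlapped, and the arrays of one genotype differed by 0.24 (wildtype) and 0.23 (knockout), more than the log2 fold change of 0.06 ± 0.12 (SE). In both genotypes replicate 2 was the higher array. The interval ran from 0.829-fold to 1.30-fold, so a 1.25-fold higher signal was within it and a 1.25-fold lower one was not.

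Ntrk2 encodes TrkB, the receptor of both ligands. Its log2 signal was 7.25 and 7.28 in wildtype mice against 7.32 and 7.15 in knockout mice. The knockout arrays lay on either side of both wildtype arrays. The log2 fold change was -0.03 ± 0.08 (SE), with an interval from 0.854-fold to 1.13-fold. With knockout replicate 2 left out it was 0.06 and with knockout replicate 1 left out -0.11. A single row carries the Ntrk2 name, and whether its probes read the full-length form, the truncated form or both is not given in the sources used here.

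**Figure D2:**
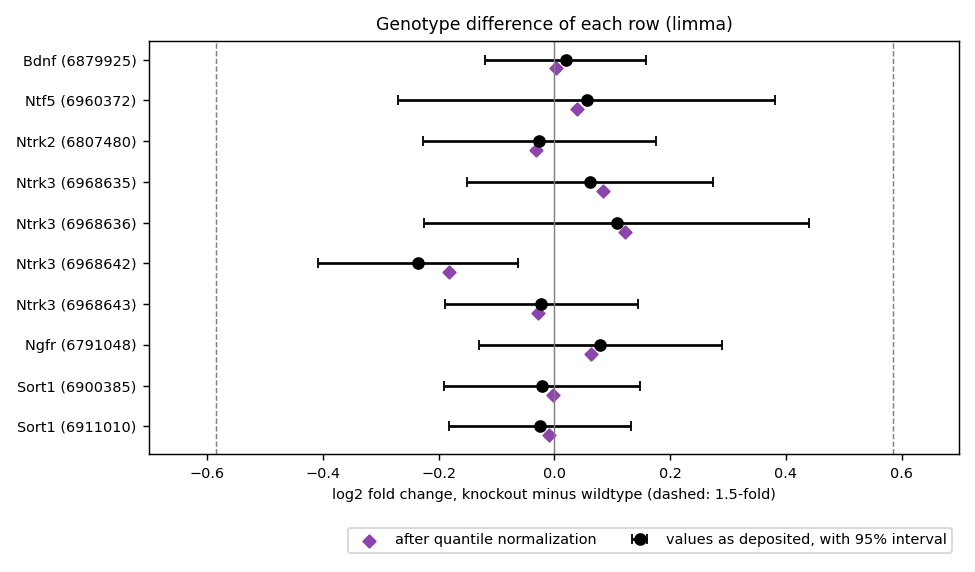
Log2 fold change of each row between knockout and wildtype (horizontal axis), as fitted by limma with its 95% interval (black) and after quantile normalization (diamonds). The dashed lines mark 1.5-fold, which none of the 10 intervals reaches, and the interval of Ntrk3 row 6968642 is the only one that does not cross 0.

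Ntrk3 encodes TrkC, and its 4 rows differed from each other. Row 6968642 had a log2 signal of 10.31 and 10.32 in wildtype mice against 10.14 and 10.02 in knockout mice. Both knockout arrays lay below both wildtype arrays, which differed from each other by 0.01. Its signal was 1.18-fold lower in the knockout, a log2 fold change of -0.24 ± 0.06 (SE, 95% interval -0.41 to -0.06). By limma the unadjusted p was 0.0184 and the adjusted p was 1, with 317 rows at a smaller p. With 1 array left out the value ran from -0.30 to -0.17, with unadjusted p values from 0.0123 to 0.0806, and after quantile normalization it was -0.18.

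The other 3 Ntrk3 rows had values that overlapped between genotypes. Row 6968635 had values of 9.17 and 9.28 in wildtype and 9.21 and 9.36 in knockout arrays, a log2 fold change of 0.06 ± 0.08 (SE). Row 6968636 had values of 8.8078 and 9.1169 in wildtype and 9.0003 and 9.1400 in knockout arrays, a change of 0.11 ± 0.12 (SE), which lay at -0.05 with wildtype replicate 1 left out. Row 6968643 had values of 7.41 and 7.41 in wildtype and 7.44 and 7.33 in knockout mice, a change of -0.02 ± 0.06 (SE). In rows 6968635 and 6968636 the replicate 2 array was the higher one in both genotypes. The mean over the 4 rows was 8.92 and 9.03 in wildtype and 8.95 and 8.96 in knockout arrays, with a log2 fold change of -0.02 ± 0.06 (SE).

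The difference between the rows was tested by setting each row of a gene against the mean of its other rows in the same array. This test was chosen after the Ntrk3 values had been seen, and it was fitted by limma to the 6681 rows of 2359 genes with several rows. Of these genes, 1597 had 2 rows, whose tests mirror each other. Such a pair enters the adjustment and the shares below as 2 tests. Row 6968642 stood 1.85 and 1.72 above the mean of the other Ntrk3 rows in the wildtype arrays and 1.59 and 1.41 above it in the knockout arrays. The log2 difference between genotypes was -0.28 ± 0.12 (SE, 95% interval -0.59 to 0.03), with an unadjusted p of 0.0646 and an adjusted p of 0.928. This difference did not pass the threshold. Over all such rows, 4.71% had an unadjusted p under 0.05 and 0% passed the adjusted threshold. Which exons or strand each Ntrk3 row covers is not given in the sources used here, so the rows cannot be assigned to the full-length or the truncated receptor. The labelling kit named in the labels copies RNA from the poly(A) tail, so rows far from it may be read unevenly, which was not tested.

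**Figure D3:**
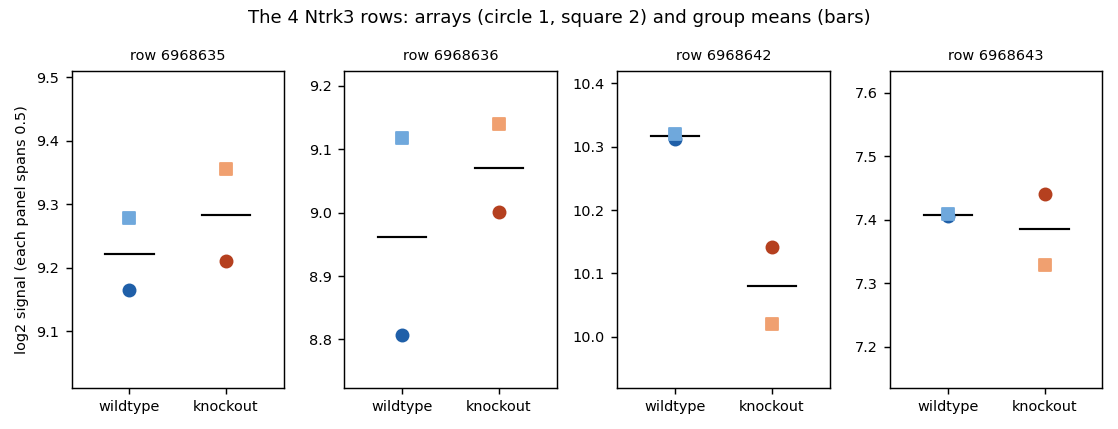
Log2 signal of the 4 Ntrk3 rows, 1 panel per row, in the wildtype (blue) and knockout (orange) arrays, with circles for replicate 1, squares for replicate 2 and bars for group means. Each vertical axis spans 0.5 on the log2 scale and starts at its own level. Row 6968642 has both knockout arrays below the wildtype arrays, and the other 3 rows have overlapping groups.

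Ngfr encodes p75, which in the adult brain is strongest on cholinergic neurons of the basal forebrain, whose axons reach the hippocampus while their cell bodies do not lie there. It was the dimmest of the 10 rows, in the bottom 10.03% of the rows tested. Its log2 signal was 5.83 and 5.93 in wildtype mice against 5.89 and 6.04 in knockout mice. The highest value was a knockout array and the lowest a wildtype array, but the groups overlapped. The log2 fold change was 0.08 ± 0.08 (SE), from 0.913-fold to 1.22-fold, and with 1 array left out it ran from 0.00 to 0.15. Of the defining genes of cholinergic neurons, Chat, the enzyme that makes acetylcholine, lay near the filter level at 5.83 and 5.85 in wildtype and 5.77 and 5.88 in knockout arrays. The choline transporter Slc5a7 did too, at 5.81 and 5.78 in wildtype and 5.79 and 5.92 in knockout arrays, and the third gene of the list, Slc18a3, was below the filter.

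Sort1 encodes sortilin, the coreceptor that pairs with p75 for precursor forms and also sorts BDNF into the regulated secretory pathway. Row 6900385 had log2 values of 8.72 and 8.73 in wildtype and 8.76 and 8.65 in knockout arrays. Row 6911010 had values of 8.93 and 8.94 in wildtype and 8.95 and 8.86 in knockout arrays. In both rows the knockout arrays lay on either side of the wildtype pair. The log2 fold changes were -0.02 ± 0.06 (SE) and -0.03 ± 0.06 (SE), and after quantile normalization they were -0.00 and -0.01. The rows moved together from array to array: the second stood above the first by 0.21 and 0.20 in the wildtype arrays and by 0.19 and 0.21 in the knockout arrays. The log2 fold changes of the Sort1 rows differed by 0.00 ± 0.10 (SE), with a 95% interval from -0.24 to 0.25.

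Knockout replicate 2 stood apart from the other arrays, and the sign of most of these values depended on it. Over the rows tested, the median absolute log2 difference was 0.082 to 0.090 in the 3 pairs of arrays with it and 0.051 to 0.063 in the 3 pairs without it. Its difference from the mean of the other 3 arrays depended on signal level, with a median of 0.05 for rows between 5 and 6, 0.0043 between 6 and 7, -0.05 between 7 and 8, and -0.09 between 10 and 11. The family followed this in part. Both Sort1 rows (-0.09 and -0.08), Ntrk2 (-0.13) and Ntrk3 row 6968643 (-0.09) were lower in that array. The median between 8 and 9, the level of Sort1, was -0.07. The dim rows Bdnf (0.04), Ngfr (0.15) and Ntf5 (0.19) were higher in that array. Each of these rows differed by more than the median of its level. Ntrk3 rows 6968635 (0.14) and 6968636 (0.16) were higher in it although they are bright, and row 6968642 (-0.24) was lower in it by more than the median of its level. Without that array Bdnf, Ntf5, Ntrk2, both Sort1 rows and Ntrk3 rows 6968635 and 6968643 changed sign, all at values within 0.06 of 0. Ntrk3 row 6968642 did not change sign, at -0.17 without that array and an unadjusted limma p of 0.0503.

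**Figure D4:**
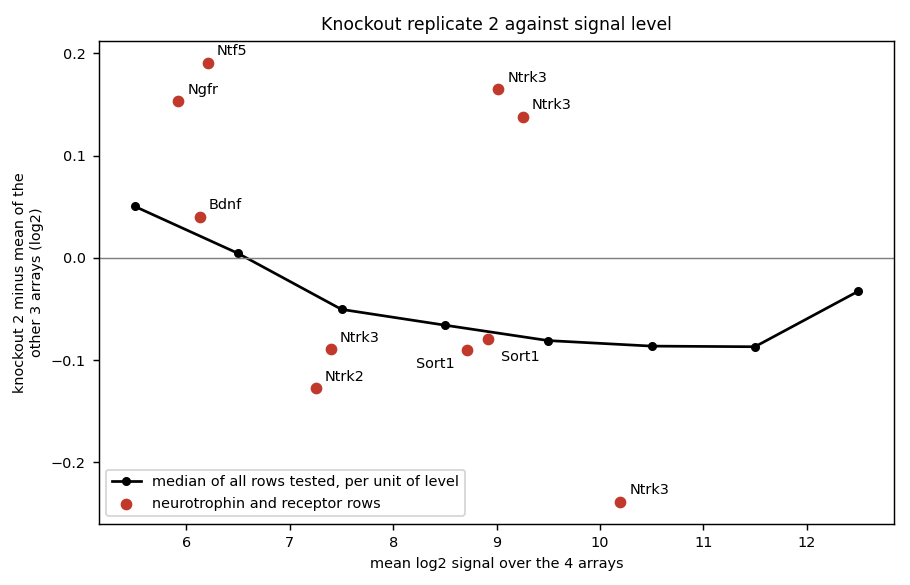
Difference of knockout replicate 2 from the mean of the other 3 arrays (vertical axis, log2) against the mean log2 signal of a row (horizontal axis). The black line joins the medians of all rows tested in steps of 1, for steps with at least 100 rows, and red points are the 10 neurotrophin and receptor rows. The line goes from 0.05 at the dim end to -0.09 between 10 and 12 and -0.03 at the bright end, the Sort1 points lie close to it, and Ntf5, Ngfr and 3 Ntrk3 rows lie well off it.

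The genes around the family were read from 7 lists with 124 genes, of which 105 were measured above the filter, each at its brightest row. None passed the adjusted threshold by limma, which 0.00625% of all 15995 genes did at their brightest row. Unadjusted p values under 0.05 were found for 4 genes, 3.81% of the 105 against 3.06% of all genes. Of these 1 was higher in the knockout (1.45% of all genes) and 3 were lower (1.61% of all genes). The median log2 fold change was -0.01, and 48 of 105 genes lay above 0, against 49.2% of all genes.

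Proteases and carriers that turn precursors into mature ligand or bring them to release had a median of -0.02, with 8 of 12 genes below 0. The values farthest from 0 were those of Mmp9, a matrix protease that can cut proBDNF (0.09), Plat, the tissue plasminogen activator that starts plasmin-driven cleavage of proBDNF (-0.09), and the matrix protease Mmp2 (0.08). Plat signal was 7.32 and 7.36 in wildtype and 7.30 and 7.20 in knockout arrays. These groups did not overlap, where 14.3% of all genes were lower in the knockout without overlap. The interval of the change (-0.25 to 0.07) included 0. In this list 2 genes were lower without overlap and 2 were higher, Mmp2 among the latter, where 14.7% of all genes were higher. The 4 relatives of sortilin had a median of -0.02, with the sorting receptor Sorl1 at 0.04, Sorcs3 at -0.03 and Sorcs1 at -0.02.

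Among 13 partners and adaptors of p75, 6 lay above 0 and 7 below, with a median of -0.01. Necdin (Ndn), a growth-restraining protein that binds p75, had log2 values of 8.15 and 8.23 in wildtype and 7.94 and 8.05 in knockout arrays, a log2 fold change of -0.19 ± 0.07 (SE). Omg, an inhibitor of axon growth in myelin that acts through the Nogo receptor and p75, had values of 7.44 and 7.37 in wildtype and 7.27 and 7.19 in knockout arrays, a log2 fold change of -0.18 ± 0.06 (SE). The genotypes did not overlap in either gene, where 14.3% of all genes were lower in the knockout without overlap. Both had unadjusted limma p values under 0.05 (0.0399 and 0.0368) and adjusted p values of 1. The Nogo receptor gene Rtn4r stood at 0.10 (95% interval -0.04 to 0.24) and was higher without overlap. In this list 3 genes were lower and 3 higher without overlap, where 14.7% of all genes were higher. Of the oligodendrocyte markers, which are relevant to Omg, 3 of 3 measured lay below 0 (Mog -0.12, Mbp -0.07, Mobp -0.06), their mean log2 level was 7.57 to 7.73 in wildtype and 7.56 to 7.57 in knockout arrays, and their part in the Omg value was not tested.

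Adaptors that bind activated Trk receptors had a median of -0.02 over 22 genes, 9 above 0 and 13 below. The adaptor Nck2 stood at -0.20 (95% interval -0.61 to 0.21), and its value rested on wildtype replicate 2, at 8.03 where the other 3 arrays were between 7.60 and 7.62. Sh2b2 stood at 0.12 and Shc1, which links Trk receptors to Ras, at 0.10. In the kinase cascades below the receptors, 15 of 21 genes lay below 0 and the median was -0.02. Eef2k, the kinase that slows protein synthesis by acting on elongation factor 2, had log2 values of 7.67 and 7.63 in wildtype and 7.44 and 7.13 in knockout arrays. Its signal was 1.29-fold lower, without overlap, where 14.3% of all genes were lower without overlap. The log2 fold change was -0.37 ± 0.12 (SE), with an unadjusted limma p of 0.0297 and an adjusted p of 1. The calcium-dependent kinase Camk4, which phosphorylates CREB, stood at -0.26 (95% interval -0.58 to 0.06), with 8.21 and 8.52 in wildtype and 8.13 and 8.07 in knockout arrays. Pik3cb, a catalytic subunit of phosphoinositide 3-kinase, was at -0.06.

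Transcriptional regulators of Bdnf had a median of -0.01 over 18 genes, 7 above 0 and 11 below. Npas4, a factor that activity switches on and that binds Bdnf promoters, had values of 7.42 and 7.66 in wildtype and 7.80 and 8.01 in knockout arrays. It was 1.29-fold higher without overlap, at a log2 fold change of 0.36 ± 0.12 (SE), where 14.7% of all genes were higher without overlap; the unadjusted limma p was 0.0312 and the adjusted p was 1. Bdnf itself stood at 0.02 beside it. The MADS-box factors Mef2d and Mef2c lay on either side of 0, Mef2d at -0.27 (95% interval -0.84 to 0.30) and Mef2c at 0.25 (-0.00 to 0.51). In this list 4 genes were higher and 2 lower without overlap, where 14.3% of all genes were lower.

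Genes that BDNF or activity induces lay above 0 in 15 of 15 cases, where 49.2% of all genes did. The list was chosen with earlier results of these data known, and its genes are not independent cases. The counts given here are therefore a description and not a test. The median of the 15 genes was 0.04, the highest value was 0.10 and the lowest was 3.15e-05 (Dusp5). Their mean log2 level was 6.90 in wildtype replicate 1, 6.96 in wildtype replicate 2 and 6.98 in both knockout arrays. Without wildtype replicate 1 the median was 0.02, while that of all genes went from -0.00 to -0.01. None of them had an unadjusted p under 0.05. Junb, a subunit of the AP-1 factor, stood at 0.10, the MAP kinase phosphatase Dusp6 at 0.09 and the zinc finger factor Egr4 at 0.08 (95% interval -0.33 to 0.49). The count was 12 of 15 without knockout replicate 2 (54.8% of all genes then lay above 0) and without wildtype replicate 1 (41.9%). It was 13 of 15 after quantile normalization (45.5%) and without knockout replicate 1 (46.9%), and 14 of 15 without wildtype replicate 2 (55.3%). Of the 15 genes, 6 were higher in the knockout without overlap, which 14.7% of all genes were, and 0 were lower without overlap.

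**Figure D5:**
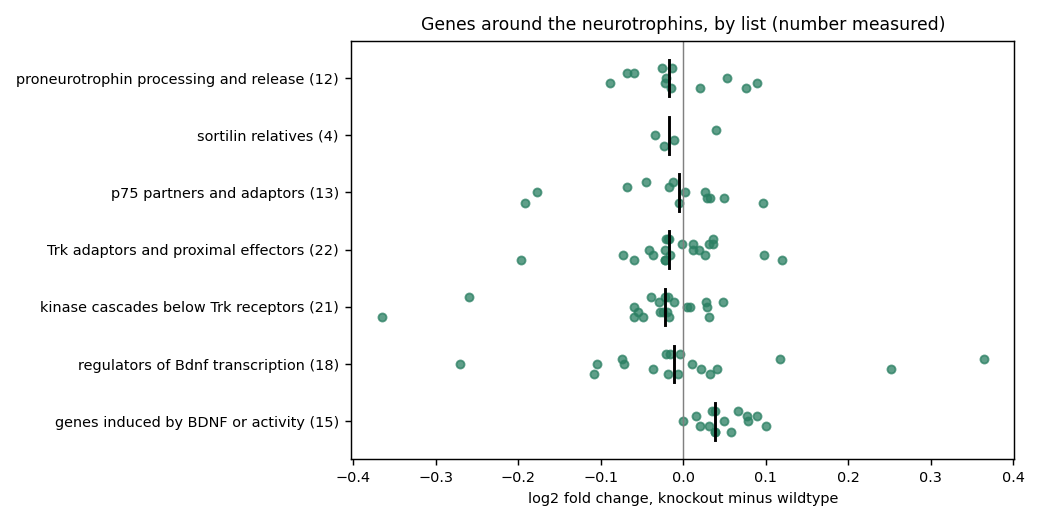
Log2 fold change between knockout and wildtype (horizontal axis) of each measured gene in the 7 lists, 1 point per gene at its brightest row, with the number measured in parentheses and a black bar at each list's median. The medians lie between -0.02 and 0.04, and the points farthest from 0 are Eef2k and Camk4 on the left of the kinase list, Mef2d on the left of the list of regulators, and Npas4 and Mef2c on its right.

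The slight negative medians depended on single arrays, most often on knockout replicate 2. Of the 7 lists 6 had a median below 0, and 5 of those had one above 0 without that array: 0.04 for processing genes, 0.00 for p75 partners, 0.02 for Trk adaptors, 0.02 for the kinase cascades and 0.04 for regulators of Bdnf. The sortilin relatives stayed at -0.00. In the kinase list, 13 of 21 genes then lay above 0, where 54.8% of all genes did. All genes together moved little, from a median of -0.00 to 0.01. Without wildtype replicate 2, the medians of Trk adaptors (0.01) and regulators of Bdnf (0.00) were also above 0, and that of the kinase cascades was -0.00. The median of all genes was 0.01 in that setting, so these lists lay near or below it.

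Markers of the cells that carry these receptors gave no call at the adjusted threshold. Slc17a7, the vesicular glutamate transporter of hippocampal principal neurons, was bright in all arrays (11.41 and 11.45 in wildtype, 11.47 and 11.48 in knockout), and Gfap of astrocytes stood at 8.45 and 8.51 in wildtype and 8.64 and 8.51 in knockout arrays, so markers of the labelled tissue were present. A label calls the RNA neuronal, but glial genes such as Gfap were well above the filter. Of 4 astrocyte markers 3 lay above 0 (median 0.07), and their mean log2 level was 7.55 to 7.62 in wildtype and 7.59 to 7.67 in knockout arrays. Their part in the Ntrk2 value was not tested. Markers of excitatory neurons had a median of 0.02 over 7 genes, interneurons -0.02 over 5, microglia -0.07 over 4 and vascular cells -0.02 over 4. Gad2, which makes GABA in interneurons, read 10.1870 and 10.1851 in wildtype and 9.9950 and 10.0425 in knockout animals, a log2 fold change of -0.17 with an unadjusted limma p of 0.0286 and an adjusted p of 1. The interneuron peptide gene Sst (-0.11) and the dentate granule cell factor Prox1 (-0.14) were also lower in the knockout without overlap. By their brightest row, 14.3% of all genes tested were lower without overlap and 14.7% higher. Of the other interneuron markers, Pvalb (0.05) was higher without overlap, and Gad1 (0.00) and Slc32a1 (-0.02) overlapped. In the excitatory list Neurod6 (-0.04) was lower without overlap and Slc17a7 (0.04) higher without overlap. The others of that list, Dsp (-0.08) among them, overlapped. In the choroid plexus list Ttr stood at -0.54 (95% interval -1.02 to -0.06), with 6.09 and 6.58 in wildtype and 5.73 and 5.86 in knockout arrays, while Folr1 was at 0.19 and Kl at -0.03.

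The genes with array profiles most like those of the family were found as the smallest root mean square difference between centred log2 values over the 4 arrays, among genes whose spread was at or above the median. Nearest to Ntrk2 were Clasp1 and Cox7b (0.0011 and 0.0024), nearest to the brightest Ntrk3 row Mob3b and Snx4 (0.010 and 0.016), and nearest to Ntf5 1700001J03Rik and Il21r (0.0071 and 0.011). For Ngfr they were Itgal and B430212C06Rik (0.0043 and 0.0051), for Sort1 Trdmt1 and Plcb1 (both 0.017) and for Bdnf Ift27 and Ahnak2 (both 0.035). Over 4 arrays such likeness is easily met. Within 0.03 lay 670 genes for Ntrk2, 509 for Ngfr, 342 for Sort1, 25 for Ntf5, 22 for Ntrk3 and 0 for Bdnf. The signals of Bdnf and Sort1 varied less than those of the genes compared.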

How the data were processed

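Hippocampal RNA of 4 mice was hybridised to mouse exon arrays. The authors deposited log2 values, judging from the numbers themselves, which run from 4.16 to 14.26 with array medians of 5.59 to 5.63. Per the submitters' processing notes the build is mm9. How they were background-corrected, scaled and summarized is not given in the sources used here, nor is the software. Per the labels' protocols, 100 ng of total RNA was labelled with a 3' in vitro transcription kit.

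Values were used as deposited. Of 265511 rows, 27090 had 1 gene symbol in GEO's platform annotation, 2498 several and 235923 none. The filter kept singly named rows whose 4-array mean reached their 25th percentile (5.70), 20317 rows for 15995 genes. All 10 family rows were above it. Limma (version 3.58.1, R 4.3.3; lmFit, eBayes, two-sided) was fitted with genotype as the only term, with 2 residual and 2.42 prior degrees of freedom, and Benjamini-Hochberg adjustment ran over all rows (threshold 0.05). Limma was tested on simulated data. The median half-width of the 95% intervals was 0.18, and having 2 arrays a genotype limits the precision. Titles number them as biological replicates.

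The members and lists were chosen with earlier results of these data known. The text names the family rows, Malat1, and in each list the 3 genes farthest from 0 at their brightest row and those with an unadjusted p under 0.05; for some marker lists only the median is given. List genes were matched by symbol or through Entrez identifiers to RefSeq. Alternatives were the replicate number as a block, other scalings, filters, row choices and variance models, and leaving out each array. Across rows, the deviations of same-numbered arrays correlated at 0.08.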

Additional observations from a re-analysis of the deposited data

How the results depend on the processing

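Over 13 alternatives, 0 of the 10 family rows and 0 rows of the genes around them passed the adjusted threshold by limma, and at an unadjusted p under 0.05 there were 0 or 1 family rows and 0 to 11 rows of the other genes. The family rows gave 117 values, of which 108 kept their direction and 9 turned, each with 1 array left out. With 1 array left out the ranges were -0.0011 to 0.040 for Bdnf, -0.063 to 0.17 for Ntf5, -0.11 to 0.056 for Ntrk2, -0.078 to 0.037 and -0.072 to 0.022 for Sort1 rows 6900385 and 6911010, and -0.011 to 0.13, -0.047 to 0.26 and -0.078 to 0.034 for Ntrk3 rows 6968635, 6968636 and 6968643. The smallest adjusted p among the 117 values was 0.548, for Ntrk3 row 6968642 without knockout replicate 1. Its difference from the other rows of the gene was also run with the block, after quantile normalization and with each array left out, and kept its direction in these.

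With the replicate number as a block, which the labels do not tie to litters, 0 rows passed and Malat1 stood at -2.61 (adjusted p = 0.0591), while rows with an unadjusted p under 0.05 went from 817 to 1182. Malat1 was at -2.61 and 0 rows passed with array medians centred (adjusted p = 0.0541), without a filter (0.0720) and over 199133 rows of the whole table (0.840). With 1 array left out Malat1 ran from -2.70 to -2.52 and 0 rows passed. The larger number of rows tested enters the last 2 of the 3 settings, and the cause was otherwise not tested. Sequencing depth does not apply to arrays; the dim rows Ngfr, Bdnf and Ntf5 lie close to the filter level.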
